A study of Homo sapiens with 4 samples.

Results

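The CREB and ATF transcription factors were followed in K562-U2AF1_S34F cells given the U2AF1-UHM inhibitor SF1-8. The family was taken as 10 genes, CREB1, CREM, ATF1, ATF2, ATF3, ATF4, ATF5, ATF6, ATF7 and CREB3, out of the 62778 entries of the deposited table that name a gene. It was chosen by measured values, since lower CREB1 and higher ATF3 FPKM with SF1-8 in these libraries drew attention to it, so the values of CREB1 and ATF3 are given below as a description without a test. Each symbol was read from the table entry that names it, and ATF1 and ATF4, which have a second short entry, were read from the entry with the higher mean count. Levels are FPKM, a measure of fragments scaled by gene length and library depth that the authors deposited, so levels of different genes are compared per length.

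K562 is an established human erythroleukemia cell line. All 4 libraries came from K562 cells that overexpress U2AF1_S34F, a mutant of the splicing factor that recognises the 3′ splice site, so every value below was measured on this background and cells with wild-type U2AF1 were not analysed here. In 2 libraries the cells were given the solvent DMSO, and in 2 they were given SF1-8 at 30 µM for 48 h, from the sample labels. The labels do not say whether the libraries of a group came from separate cultures, so the tests measure the spread between these libraries, which may be technical. Total RNA was sequenced after removal of ribosomal RNA, and the estimated counts summed to between 45522905 in DMSO 1 and 67554610 in SF1-8 1.

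CREB and ATF proteins are basic leucine zipper factors that bind DNA as dimers. CREB1, CREM and ATF1 form the cAMP-responsive group, which binds the cAMP response element (CRE) and recruits the coactivators CBP and p300 after phosphorylation by kinases such as protein kinase A. ATF2 and ATF7 are targets of stress-activated kinases and pair with JUN, ATF4 and ATF5 are translated when the initiation factor eIF2 is phosphorylated, ATF3 is induced by many stresses, and ATF6 and CREB3 are held in the endoplasmic reticulum membrane until they are cleaved. RNA levels do not measure phosphorylation, translation or cleavage, and these steps were not measured in the data analysed here.

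The promoter windows of CREB1 and ATF3 are shown because these members had the widest separation between groups. Both windows are from RefSeq on GRCh38.p14, run 5′ to 3′ on the + strand from 250 bases before the gene start to 50 after it, and capitals mark the only match to any of the motifs searched.
CREB1, chr2:207529712-207530011: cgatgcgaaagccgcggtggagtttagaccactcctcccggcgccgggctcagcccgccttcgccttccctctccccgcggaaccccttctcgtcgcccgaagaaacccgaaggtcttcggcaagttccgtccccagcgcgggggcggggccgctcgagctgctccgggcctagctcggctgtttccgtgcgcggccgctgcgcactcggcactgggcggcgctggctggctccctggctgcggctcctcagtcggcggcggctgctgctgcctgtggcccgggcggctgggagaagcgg
ATF3, chr1:212565157-212565456: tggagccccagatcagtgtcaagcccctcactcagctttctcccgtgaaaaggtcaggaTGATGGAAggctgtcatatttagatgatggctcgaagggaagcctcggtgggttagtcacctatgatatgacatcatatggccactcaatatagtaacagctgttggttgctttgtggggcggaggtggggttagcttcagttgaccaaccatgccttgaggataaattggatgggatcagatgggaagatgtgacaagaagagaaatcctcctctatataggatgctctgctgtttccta
The motifs searched on both strands were the CRE, TGACGTCA, its core, TGACG, which lies within it, and the C/EBP-ATF element, TGATGNAA. Of the 9 members with a window in RefSeq, 0 held TGACGTCA, which is in 1.85% of 35116 promoter windows of the same length. TGACG was found in 3 members, ATF4 at 160 and 125 bases before the start, ATF6 at 113 and 44 before and CREB3 at 94 before, and in 24.6% of all windows. TGATGNAA was found in 1 member, ATF3, at 191 bases before the start, and in 3.62% of all windows. ATF3 has several starts, and only 2 of its 11 annotated transcripts in GENCODE release 29 begin inside this window, against 5 of 17 for CREB1. No entry was given for ATF2.

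The 10 members spanned levels from 0.224 to 11.2 FPKM in the means of the DMSO libraries. In DMSO the order from the highest was ATF1, ATF6, ATF4, ATF2, CREB3, ATF5, ATF7, CREB1, CREM and ATF3, and among neighbours in this order only ATF1 and ATF6 overlapped in their library values. With SF1-8 the first 5 kept these places, ATF7 stood before ATF5 and CREM before CREB1, and both of these neighbouring pairs overlapped. The summed level of the 10 members was 65.6 and 63.0 FPKM in the DMSO libraries and 62.4 and 61.5 in the SF1-8 libraries.

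**Figure D1:**
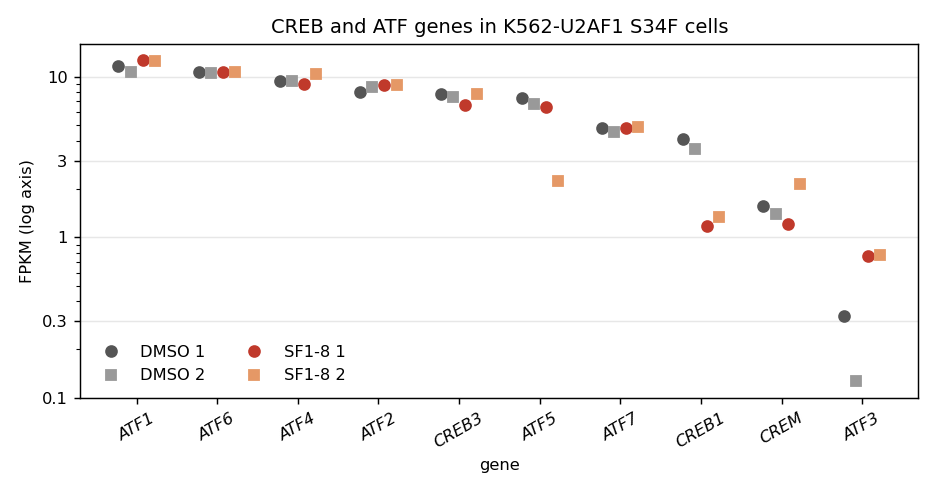
FPKM of the 10 members on a log axis, with 1 point for each of the 4 libraries and the genes ordered by their mean in DMSO. CREB1 lies at 4.07 and 3.56 with DMSO and at 1.17 and 1.34 with SF1-8, ATF3 lies at 0.321 and 0.127 against 0.763 and 0.775, and ATF5 is split only within SF1-8, at 6.45 and 2.25.

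CREB1, the activator for which the family is named, lies on chr2:207529737-207603431 of hg38 on the + strand. The DMSO libraries held CREB1 at 4.07 (DMSO 1) and 3.56 FPKM (DMSO 2), and the SF1-8 libraries at 1.17 (SF1-8 1) and 1.34 FPKM (SF1-8 2). Both SF1-8 libraries lay far below both DMSO libraries, with group means of 3.81 ± 0.363 and 1.26 ± 0.119 FPKM (SD, n = 2 each). The fitted log2 fold change, SF1-8 over DMSO, was -1.56 (SE 0.114), and the estimated counts were 2857 and 3495 with DMSO and 1199 and 1321 with SF1-8. METTL21A, a methyltransferase gene on the opposite strand that shares 22801 bases with the CREB1 entry, had 2.09 and 1.67 FPKM with DMSO and 1.62 and 1.57 with SF1-8, a log2 fold change of -0.20 (SE 0.145). The strand setting of the counting is not given in the sources used here, so reads from the shared stretch cannot be assigned with certainty to either gene.

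CREM, which gives rise to activators and to the repressor ICER, lies on chr10:35126791-35212958 (+). It measured 1.56 and 1.40 FPKM with DMSO and 1.22 and 2.14 with SF1-8, so the SF1-8 libraries lay on either side of both DMSO libraries. Its log2 fold change was 0.20 (SE 0.280, adjusted p = 0.970), and it turned to -0.24 without SF1-8 2.

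ATF1, the closest relative of CREB1 and CREM in this group, lies on chr12:50763710-50820010 (+) and was the highest member in FPKM in both groups. It measured 11.7 and 10.7 FPKM with DMSO and 12.7 and 12.4 with SF1-8. The treated libraries exceeded the controls without overlap, by little, and the log2 fold change was 0.20 (SE 0.0889, adjusted p = 0.970).

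In FPKM, the makeup within the cAMP-responsive group thus differed between the treatments more than the total did. The summed FPKM of CREB1, CREM and ATF1 was 17.3 and 15.6 with DMSO and 15.1 and 15.9 with SF1-8, and these ranges overlapped. The CREB1 share of that sum was 23.5% and 22.8% with DMSO and 7.79% and 8.44% with SF1-8. The ATF1 share was 67.5% and 68.3% with DMSO and 84.1% and 78.1% with SF1-8. The CREM share was 9.0% and 8.97% with DMSO and 8.08% and 13.4% with SF1-8, so it overlapped between groups. ATF1 stood 2.87-fold and 3.0-fold above CREB1 in the DMSO libraries, and 10.8-fold and 9.26-fold above it in the SF1-8 libraries. CREB1 stood 2.61-fold and 2.54-fold above CREM in the DMSO libraries, and at ratios of 0.965 and 0.628 in the SF1-8 libraries. These shares rest on CREB1, whose values chose the family, and carry no test.

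**Figure D2:**
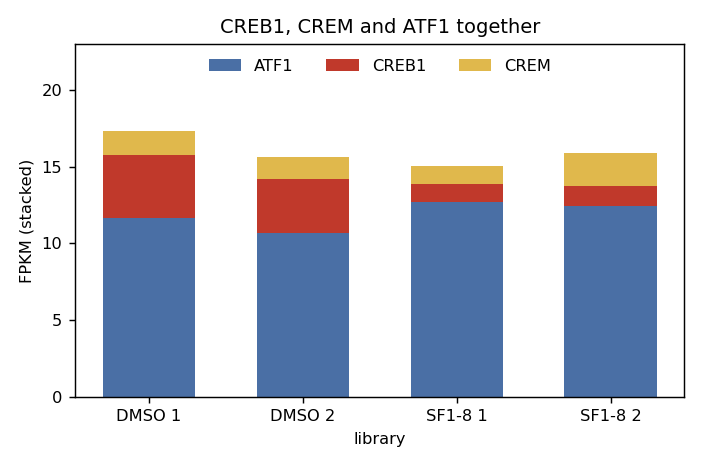
FPKM of CREB1, CREM and ATF1 stacked for each of the 4 libraries. The CREB1 part of the bar makes up 23.5% and 22.8% with DMSO and 7.79% and 8.44% with SF1-8, while the height of the bars stays between 15.1 and 17.3 FPKM. The heights and parts depend on the scaling of FPKM by gene length.

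ATF3, a stress-induced factor that as a homodimer mostly represses, lies on chr1:212565334-212620772 (+) and was the lowest member in both groups. It measured 0.321 FPKM in DMSO 1 and 0.127 FPKM in DMSO 2, against 0.763 FPKM in SF1-8 1 and 0.775 FPKM in SF1-8 2. The SF1-8 libraries lay close together and above both DMSO libraries, which differed from each other by more, and the group means were 0.224 ± 0.138 and 0.769 ± 0.00811 FPKM (SD, n = 2 each). The log2 fold change was 1.82 (SE 0.438), and the estimated counts were 76 and 43 with DMSO against 260 and 255 with SF1-8. It ranged from 1.32 without DMSO 2 to 2.54 without DMSO 1, and it was 0.54 with limma on log2(FPKM + 1), where the pseudocount draws the fold change of a gene at this level toward 0. The size of the difference thus depends on which DMSO library is taken and on the scale.

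ATF2 and ATF7, the partners of JUN that answer to JNK and p38 kinases, were near the same level in all libraries. ATF2, on chr2:175072250-175168382 (-), measured 7.98 and 8.61 FPKM with DMSO and 8.92 and 8.83 with SF1-8, a log2 fold change of 0.12 (SE 0.0944). ATF7, on chr12:53506688-53626370 (-), measured 4.80 and 4.49 FPKM with DMSO and 4.82 and 4.87 with SF1-8, a log2 fold change of 0.088 (SE 0.0814). In both genes the SF1-8 libraries lay above the DMSO libraries. The ATF7 entry also names NPFF and the readthrough gene ATF7-NPFF and the ATF2 entry also names AC007435, so their values cannot be split.

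ATF4, the main effector of eIF2 phosphorylation, lies on chr22:39519672-39522683 (+). It measured 9.33 and 9.41 FPKM with DMSO and 8.94 and 10.4 with SF1-8, so the SF1-8 libraries enclosed the DMSO libraries. Its log2 fold change was 0.071 (SE 0.116), and it was -0.030 without SF1-8 2.

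ATF5, a relative of ATF4 under the same translational control, lies on chr19:49928543-49933935 (+) in an entry that also names MIR4751. It measured 7.37 and 6.76 FPKM with DMSO, 6.45 in SF1-8 1 and 2.25 in SF1-8 2. The low level was in SF1-8 2 alone, and the libraries of the SF1-8 group stood 2.87-fold apart. The log2 fold change was -0.67 (SE 0.478, adjusted p = 0.970), and it ranged from -0.092 without SF1-8 2 to -1.62 without SF1-8 1. Of the 14086 entries with a mean level of at least 1 FPKM, 289 (2.05%) had SF1-8 libraries at least as far apart. On the opposite strand, an entry that names IL4I1, NUP62, AC011452 and SIGLEC11 covers all 5393 bases of the ATF5 entry. That entry measured 7.07 and 5.10 FPKM with DMSO, 5.83 in SF1-8 1 and 8.28 in SF1-8 2, so it was highest in the library where ATF5 was lowest. The part of this overlap in the ATF5 values was not tested.

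ATF6, the sensor of unfolded protein in the endoplasmic reticulum, lies on chr1:161766320-161964070 (+). It measured 10.7 and 10.5 FPKM with DMSO and 10.7 in both SF1-8 libraries, a log2 fold change of 0.047 (SE 0.0721). CREB3, which is cleaved by the same proteases, lies on chr9:35732598-35736999 (+). It measured 7.82 and 7.49 FPKM with DMSO and 6.70 and 7.76 with SF1-8, with overlapping groups, and its log2 fold change was -0.056 (SE 0.136). The sign of the CREB3 difference turned without SF1-8 1, to 0.044.

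All 10 members passed the filter on low counts. Apart from CREB1 and ATF3, whose values chose the family, 0 of the 8 members passed an adjusted p of 0.05 in edgeR's quasi-likelihood test, where 0.042% of the 26167 genes tested did. With all 4 libraries in the fit, the same 8 members held 0 genes at an unadjusted p of 0.05. Of all genes, 2.54% reached it with a lower and 1.78% with a higher level in SF1-8. For these 8 the number past the adjusted threshold was also 0 with DESeq2 and with limma. In FPKM, both SF1-8 libraries lay below both DMSO libraries for ATF5, where 20% of all genes did, and above both for ATF1, ATF2, ATF6 and ATF7, where 14.2% did, while CREM, ATF4 and CREB3 overlapped. Over all tested genes the log2 fold change had a median of -0.011. With 2 libraries in a group an exact permutation test of a single gene cannot give a two-sided p below 0.333.

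**Figure D3:**
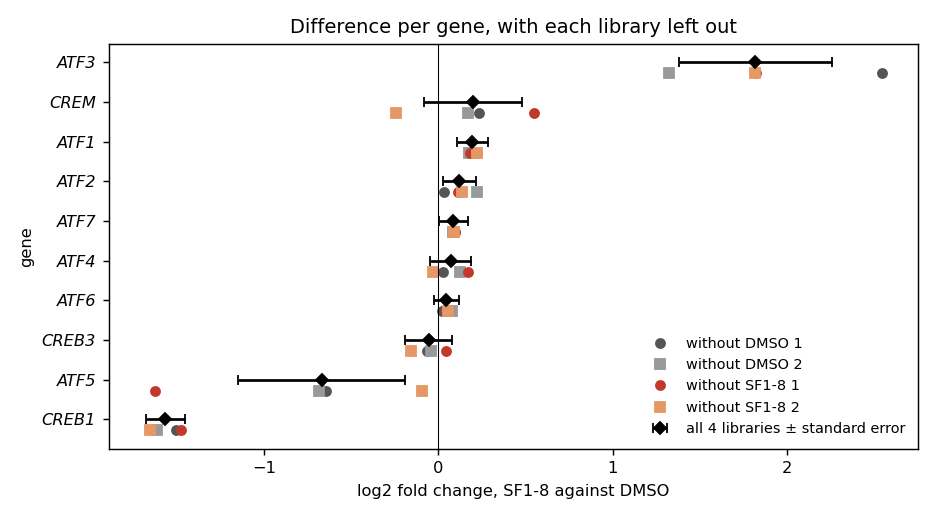
Log2 fold change of each member, SF1-8 over DMSO, from the edgeR fit with its SE, and coloured points for the fits that leave out 1 library each. CREB1 stays between -1.65 and -1.47, ATF3 between 1.32 and 2.54 and ATF5 between -1.62 and -0.092, while CREM, ATF4 and CREB3 have a point on each side of 0.

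The other genes of these pathways were read from lists of their relatives, partners, regulators and targets. The lists held 143 tested entries besides the members, of which 6 reached an unadjusted p of 0.05 in edgeR, 2 with a lower and 4 with a higher level, and 0 passed the adjusted threshold. Over all genes 2.54% reached the unadjusted threshold with a lower and 1.78% with a higher level. The count of 6 became 10 without DMSO 1, 13 without DMSO 2, 5 without SF1-8 1 and 8 without SF1-8 2, and lay between 2 and 4 in the limma settings, so it depends on the libraries and the test. The adjusted threshold was passed by 1 gene with DESeq2, BCL2, and by 0 with limma. Without DMSO 2 it was passed by CREB3L2 and PRKAR1A, in a fit where DMSO 1 is the lone control and its spread is assumed to be that of the SF1-8 libraries. The median log2 fold change over these entries was 0.041, against -0.011 over all tested genes, with 92 entries higher and 51 lower. Whether the lists differ from all genes in this was not tested.

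Among 12 other CREB and ATF genes tested, 0 reached an unadjusted p of 0.05 and the median log2 fold change was 0.039. Without DMSO 2, 2 reached it with a lower and 1 with a higher level. The most abundant were CREB3L2, a membrane-bound relative of CREB3, and CREBZF. CREB3L2 measured 3.61 and 12.4 FPKM with DMSO and 13.2 and 12.4 with SF1-8, so its only low library was DMSO 1, the lone control in that fit. CREBZF measured 7.05 and 5.46 FPKM with DMSO and 5.26 and 5.57 with SF1-8, and its groups overlapped.

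Among 16 dimer partners, from the JUN, FOS, C/EBP and small MAF families with NFE2L2, the median log2 fold change was -0.011. At an unadjusted p of 0.05, 1 was lower and 1 higher, and the lower count moved without DMSO 2. DDIT3 (CHOP), a C/EBP-type factor induced downstream of ATF4, measured 15.6 and 13.2 FPKM with DMSO and 8.54 and 10.4 with SF1-8, in an entry that also names AC022506. Its groups did not overlap, and its log2 fold change was -0.58 (SE 0.146, adjusted p = 0.970). MAFK, a small MAF protein that pairs with NFE2-type factors, measured 4.03 and 2.46 FPKM with DMSO and 5.70 and 5.73 with SF1-8, a log2 fold change of 0.85 (SE 0.221, adjusted p = 0.970).

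On the side of CREB activation, 25 kinase and cAMP pathway genes had a median log2 fold change of 0.058, and 0 reached an unadjusted p of 0.05. Among these 25 genes the 0 did not hold without DMSO 1, DMSO 2 or SF1-8 1, fits with 1 library in a group. The most abundant were PRKAR2B, a regulatory subunit of protein kinase A, at 54.4 and 54.0 FPKM with DMSO and 54.8 and 57.9 with SF1-8, and PPP1CA, a catalytic subunit of the phosphatase that removes the activating phosphate from CREB1, with group means of 38.4 and 40.2 FPKM. Both were higher in the SF1-8 libraries without overlap, by little, with log2 fold changes of 0.083 (SE 0.0679) and 0.092 (SE 0.0813). The 11 coactivators and CRTC regulators had 0 genes at an unadjusted p of 0.05 and a median of 0.041. For them the 0 did not hold without DMSO 1 or without DMSO 2. The most abundant of them was NONO, an RNA-binding protein that works with CRTC coactivators, at 54.5 and 29.8 FPKM with DMSO and 53.7 and 31.1 with SF1-8, a split within both groups. CRTC2, a coactivator released to the nucleus when cAMP rises, is named in an entry with 4 other genes that measured 12.6 and 11.1 FPKM with DMSO and 12.2 and 11.0 with SF1-8, so the value cannot be assigned to CRTC2 alone.

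Of 22 known CREB target genes tested, 0 were lower and 2 higher at an unadjusted p of 0.05, and the median log2 fold change was 0.035. BCL2, which blocks apoptosis, measured 0.271 and 0.238 FPKM with DMSO and 0.570 and 0.578 with SF1-8. Its SF1-8 libraries lay well above its DMSO libraries at a low level, with a log2 fold change of 1.20 (SE 0.169, adjusted p = 0.397). NR4A1, an immediate early nuclear receptor, measured 0.181 and 0.158 FPKM with DMSO and 0.283 and 0.299 with SF1-8, a log2 fold change of 0.76 (SE 0.241, adjusted p = 0.970). NR4A1 missed the unadjusted threshold without DMSO 2, without either SF1-8 library and in the limma settings, and BCL2 missed it in 2 of the 3 limma settings.

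For ATF4, 11 regulators had 1 lower and 1 higher gene at an unadjusted p of 0.05 and a median log2 fold change of 0.086. EIF2AK2 (PKR), the eIF2 kinase that senses double-stranded RNA, measured 8.66 and 7.31 FPKM with DMSO and 5.71 and 6.70 with SF1-8, a log2 fold change of -0.33 (SE 0.111, adjusted p = 0.970). FBXO22, an F-box subunit of a ubiquitin ligase, measured 3.49 and 3.19 FPKM with DMSO and 5.20 and 3.92 with SF1-8, a log2 fold change of 0.48 (SE 0.154, adjusted p = 0.970). Both missed the unadjusted threshold in every limma setting, without DMSO 1 and without SF1-8 1, and FBXO22 also without DMSO 2. Of 21 ATF4 target genes besides ATF3 and ATF5, 1 was lower, DDIT3, and 0 were higher, with a median of 0.0097. These target counts moved without DMSO 1 and without either SF1-8 library.

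Of 14 regulators of ATF2, ATF7 and ATF3, 0 reached an unadjusted p of 0.05 and the median log2 fold change was -0.014. Among these regulators the 0 did not hold without DMSO 1, DMSO 2 or SF1-8 2, fits with 1 library in a group. The most abundant were HDAC1, a histone deacetylase, at 34.5 and 39.2 FPKM with DMSO and 39.5 and 42.1 with SF1-8, and MAPKAPK2, the kinase below p38, whose group means were 16.7 and 16.4. Of 19 genes that process ATF6 or CREB3 or are targets of ATF6, 0 reached it and the median was 0.059. With limma on log2(FPKM + 1), 1 of these genes was higher at an unadjusted p of 0.05. Nor did the 0 of these genes hold without DMSO 2. The most abundant of these were the chaperone gene CALR, with group means of 163.4 FPKM for DMSO and 162.1 for SF1-8, and SDF2L1, with 150.2 and 150.8.

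**Figure D4:**
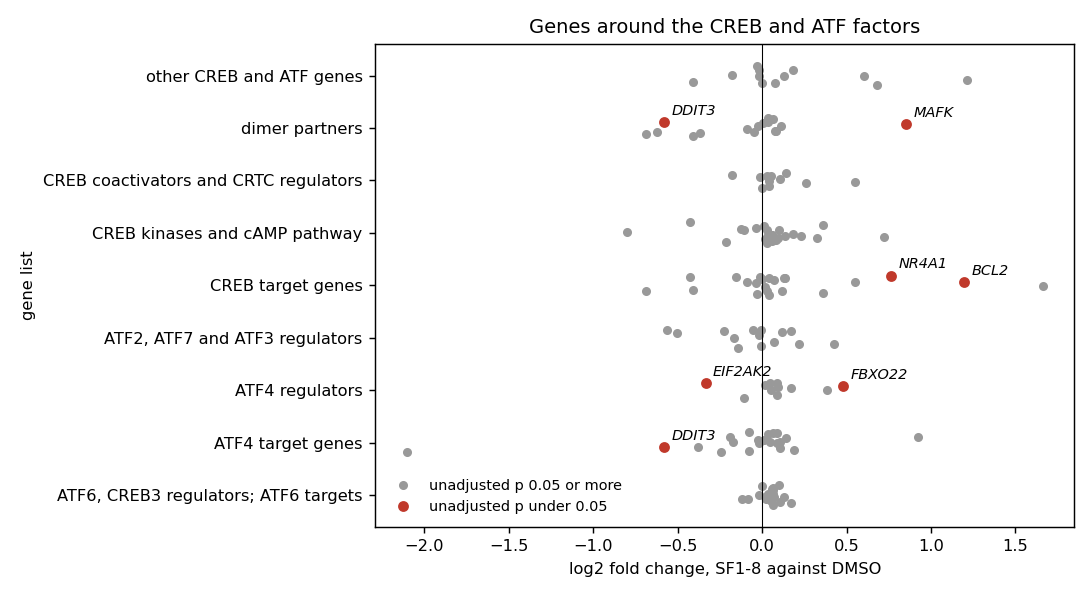
Log2 fold change, SF1-8 over DMSO, of every tested gene in each list, 1 point for each gene, with the genes under an unadjusted p of 0.05 in red and named. The points of every list lie on both sides of 0, and among the genes in red BCL2 at 1.20 stands farthest out.

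The genes whose 4 library values were most like those of CREB1 were a 303-base entry that names CRTC1, apart from the main CRTC1 entry, at a Euclidean distance of 0.140 between centred log2(FPKM + 0.1) values, AC061975 at 0.149 and a short entry that names CDR2 at 0.182. For ATF3 they were SNORD105 at 0.109, PCSK6-AS1 at 0.113 and AL033504 at 0.201. The distance was taken over the 4 libraries and 24164 entries.

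The labelled cell type was checked against marker genes. The K562 erythroid markers summed to 373 and 368 FPKM with DMSO and to 338 and 361 FPKM with SF1-8, so both SF1-8 sums lay below both DMSO sums. None was at 0, 0 of the 10 entries reached an unadjusted p of 0.05, and 4 were lower in both SF1-8 libraries than in both DMSO libraries in FPKM and 2 in TMM-normalized CPM, where 20% and 18.1% of all genes were. GATA1 lay between 75.9 and 79.1 FPKM. Without DMSO 2 the erythroid count at the unadjusted p was not 0. Stromal markers were low and also separated the groups, summing to 21.4 and 14.6 FPKM with DMSO and to 11.4 and 8.25 FPKM with SF1-8. Of these 13 markers, 12 were lower in both SF1-8 libraries than in both DMSO libraries, against 20% of all genes, and DCN, LUM and POSTN were at 0 in at least 1 SF1-8 library. At an unadjusted p of 0.05, 8 of the 13 were lower, against 2.54% of all genes, and 0 passed the adjusted threshold. That count was 3 without DMSO 1, 5 with counts divided by 4 and 3 to 5 in the limma settings. Both marker sums differed in the same direction as CREB1, and their part in the values above was not tested. Lymphoid and monocyte markers summed to between 5.14 and 7.02 FPKM, with CD3E, MS4A1, CD79A and CD14 at 0 in at least 1 library. Fewer cells of a type and less RNA per cell cannot be told apart in these bulk libraries.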

How the data were processed

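RNA-seq of 4 libraries was analysed. The authors deposited FPKM, normalized for gene length and library depth, and an estimated count for each gene entry. The submitters' processing notes name cutadapt, FastQC, Bowtie2, HISAT2, StringTie and hg38, but the counting tool, its strand setting and the test are not given in the sources used here. Counts were rounded, normalized by TMM, filtered by filterByExpr (26167 genes) and tested with the edgeR 4.0.16 quasi-likelihood F test, two-sided, with Benjamini-Hochberg adjustment over all genes. The steps were tested on simulated data. Entries without a gene name (2095 of 64873; 0.358% to 0.421% of each library's counts) were left out. Because the commonest count above 0 is 4, a count may not stand for 1 read, and no counting error was computed. Total counts were 45522905, 64387710, 67554610 and 64305922 for DMSO 1, DMSO 2, SF1-8 1 and SF1-8 2.

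Alternatives were DESeq2 1.42.0, no filter, counts divided by 4, the replicate number as a block, the sum of a symbol's entries, limma 3.58.1 on log2(FPKM + 1) or log2(FPKM + 0.1), and leaving out each library, in R 4.3.3. The members and lists were chosen with earlier results of these data known. The named genes were all members and, in each list, up to 4 genes at the smallest p under 0.05 or else the 2 with the highest FPKM, and for CREB1 and ATF3 the 3 genes with the most similar values. The values on replicate gaps and on libraries that stand apart were chosen after the data were seen. The values of 1 gene of the lists are not reported here, and it is left out of the list counts.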

Additional observations from a re-analysis of the deposited data

How the results depend on the processing

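Of the 120 log2 fold changes of members under the alternatives, 113 kept their direction and their side of the threshold. Those that reversed were CREB3 (-0.15 to 0.044 when 1 library was left out, above 0 without SF1-8 1), CREM (-0.24 to 0.55, below 0 without SF1-8 2) and ATF4 (-0.030 to 0.17, below 0 without SF1-8 2). The count of genes at an adjusted p under 0.05, 11 with edgeR, was 164 with DESeq2, 31 without a filter on low counts and 0 in each of the 3 limma settings, and leaving out 1 library gave 0 (without DMSO 1) to 30 (without SF1-8 1). The count of members was 0 with edgeR, 2 with DESeq2 (CREB1 and ATF3), 1 without a filter (CREB1), and 0 to 1 when 1 library was left out (CREB1, without SF1-8 2). The only members in these counts are CREB1 and ATF3, whose values chose the family. The counts therefore describe how processing moves a threshold and test neither gene. The causes of these changes were not tested. Without SF1-8 1, where SF1-8 2 is the lone treated library, the log2 fold change was 0.55 for CREM and -1.62 for ATF5. The 0 of the 8 other members at an unadjusted p of 0.05 did not hold there. The spread of SF1-8 2 is in that fit assumed to be that of the DMSO libraries, so p-values are not printed for these members. With the replicate number as a block, 0 genes and 0 members passed. The labels number the replicates but do not say that a number pairs libraries, and same-numbered libraries deviated with r = -0.0257 over 15830 genes. Precision rests on the spread between 2 libraries in a group, and what depth limits was not tested.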

Other observations

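A library at least 2-fold from the other 3, which lie within 1.5-fold of each other, was counted over the 14086 entries with a mean level of at least 1 FPKM. DMSO 1, DMSO 2, SF1-8 1 and SF1-8 2 were the low library in 77, 74, 65 and 82 entries, and the high library in 38, 9, 11 and 21. Among the genes of the lists, CREB3L2 and PRKAR1A, the regulatory subunit of protein kinase A, were low in DMSO 1 and ATF5 was low in SF1-8 2. The entry of PRKAR1A, which also names ARSG and AC007780, measured 2.39 and 6.63 FPKM with DMSO and 7.16 and 7.68 with SF1-8.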
